A study of Mus musculus with 3 samples.

Results

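Serum response factor and the cofactors that it recruits were followed through the loss and the return of attachment in cultured cardiac myofibroblasts. The 7 genes were Srf itself, the myocardin-related factors Mrtfa and Mrtfb (older names Mkl1 and Mkl2), the gene of myocardin (Myocd), and Elk1, Elk3 and Elk4. They were chosen by name, and their probes were found through the RefSeq transcript that the array files give for each probe. All 7 were measured, among 15393 genes, by 16 probes in all. The cells came from infarcted hearts of male C57BL/6J mice, taken 3 days after the left anterior descending coronary artery had been tied off for good. The labels give the age as 8 weeks in one field and 10 weeks in another. After enzymatic digestion the cells were left on plastic overnight, and those that attached had their CD45-positive cells, which are leukocytes, removed on magnetic beads, so that the population was defined by attachment and by the lack of this marker. The adherent group was grown on plastic plates, the non-adherent group was moved from plates into suspension, and the re-adherent group was put back on plates after suspension. There was 1 array for each group, and by the design text its sample was mixed from 3 plates of heart cells, so the single value per state averages over plates. The states were collected one after another, so the state cannot be told apart from the total time in culture.

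SRF is a transcription factor of the MADS-box family that binds as a dimer to the CArG box, a short element made of CC, a run of A or T, and GG. It activates little by itself and works with either of a pair of cofactor families that compete for the same face of the protein. The myocardin-related factors MRTF-A and MRTF-B bind monomeric actin and are held out of the nucleus by it. When signalling through small GTPases drives actin into filaments they are released, enter the nucleus and turn on genes of the contractile cytoskeleton. That is one of the routes by which tension on a stiff surface reaches the genome of a fibroblast. Myocardin works the same way on DNA but is nuclear from the start, and it is largely restricted to heart and smooth muscle. The Elk factors (Elk1, Elk3, also called Net, and Elk4, also called SAP-1) belong to the ETS family. They need an ETS site beside the CArG box, are switched on by the kinase ERK, and serve the rapid immediate-early genes that follow growth factors. In cardiac fibroblasts the MRTF arm is known for driving smooth-muscle actin and the myofibroblast state. The arrays measured RNA only, not the amount, location or phosphorylation of these proteins.

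Signals are given as the processed intensity of the scanner software. Levels are the log2 of that intensity relative to the 75th percentile of the same array, and differences are differences between such levels, each with the technical error that the software assigns to the spots. With 1 array per state there was no spread between replicates, no test and no p-value, and every value below describes these 3 arrays. Of 59305 spots that were not controls, 58.1%, 59.9% and 53.9% were well above background for adherent, non-adherent and re-adherent cells, and 15 of the 16 probes of the 7 genes were so on all 3. The software error of a difference had a median of 0.20 over genes. Probes spotted repeatedly varied with an SD of 0.07, 0.08 and 0.06 between their spots in the 3 comparisons, over at least 267 probes. The signal of a probe depends on its sequence as well as on the RNA, so levels are compared between states of the same probe. Exceptions are the rank of a bright Elk1 probe and the summed levels of cell-type markers. Such sums are dominated by the brightest probes.

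Srf and Myocd were more than 2-fold lower in suspension and returned on plastic. Myocd, however, was not well above background in suspension. The counts of 2 below include it and fell to 1 with only probes above background on all arrays. Mrtfb was just over 2-fold higher in suspension by its brightest probe, and Mrtfa, Elk1, Elk3 and Elk4 stayed within 2-fold. Of the 7 genes, 2 were over 2-fold lower in non-adherent than in adherent cells, where 14.7% of all genes were. In the same comparison 1 was over 2-fold higher, where 17.2% of all genes were. From suspension back to plastic, 2 of the 7 were over 2-fold higher, against 15.6% of all genes, and 0 were over 2-fold lower, against 16.3%. Between re-adherent and adherent cells none of the 7 was past 2-fold in either direction, where 4.9% of all genes were lower and 4.84% higher. With 7 genes these shares say little of the group as a whole, and the single genes are described in turn. The median difference of the 7 genes was -0.26 in suspension, beside -0.07 over all genes.

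**Figure D1:**
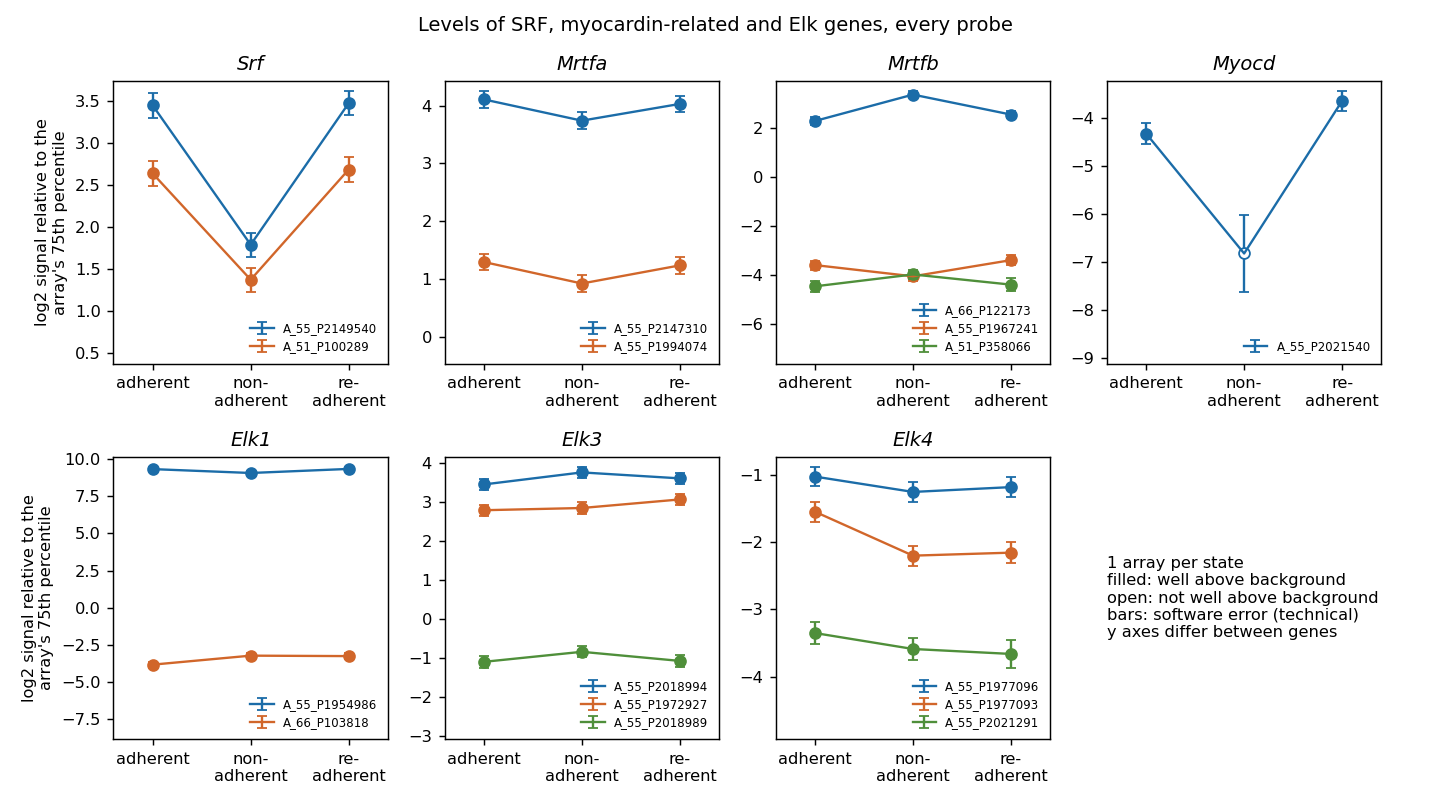
Level of every probe of the 7 genes on the 3 arrays, as log2 signal relative to the 75th percentile of the array, with bars for the technical error of the software and an open point where the probe was not well above background. Both Srf probes dipped in suspension and came back, Myocd dropped below the detection limit in suspension, and the Mrtfb and Elk1 probes did not all run in parallel. Each gene has its own vertical scale.

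Srf, the DNA-binding factor that all the other proteins share, had a signal of 7119 in adherent, 2416 in non-adherent and 6028 in re-adherent cells on its brighter probe (A_55_P2149540, transcript NM_020493). The suspended cells were low and the attached states lay close together. The difference was -1.66 ± 0.20 in suspension, a 3.15-fold lower level, and 7.10% of all genes lay lower. On return it was 1.68 ± 0.20, a 3.21-fold higher level, with 7.33% of genes above it. Re-adherent and adherent cells differed by 0.03 ± 0.20, less than the technical error. The other Srf probe (A_51_P100289, same transcript) gave 4060, 1810 and 3489, hence -1.26 in suspension, 1.31 on return and 0.05 between the attached states. Both probes thus passed 2-fold in each direction, and they differed from each other by less than either change. Spots around the brighter probe that were above background on all arrays lay 0.13 below the median of such spots in suspension, over 22 spots, and those around the other lay 0.31 below over 16. For the other probe this local shift was larger than the amount by which it passed 2-fold in suspension. In RNA from a mixed culture, fewer cells that express a gene and less RNA per cell cannot be told apart, for Srf and for every gene below.

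The start of Srf holds sites for its own protein, and its promoter is shown for that reason. It is the stretch of 250 bases that ends just before the RefSeq start site in assembly GRCm38.p6, at chr17:46556163-46556412 on the minus strand, read from 5′ to 3′ in the direction of the gene. Capitals mark a match to the ETS hexamer CCGGAA followed by 2 CArG boxes.
Srf: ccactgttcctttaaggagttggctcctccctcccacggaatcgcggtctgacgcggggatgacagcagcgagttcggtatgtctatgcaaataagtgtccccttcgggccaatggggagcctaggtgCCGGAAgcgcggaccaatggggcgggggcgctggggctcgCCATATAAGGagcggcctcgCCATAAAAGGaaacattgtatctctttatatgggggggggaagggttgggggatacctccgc
The ETS hexamer lies at bases -122 to -117 from the start, and the boxes, CCATATAAGG and CCATAAAAGG, lie at -82 to -73 and -62 to -53. Both kinds of match in the same window are rare: 60 of 32851 RefSeq windows of 300 bases (0.183%) had them, as described with the targets below. A match is a stretch of letters and was not shown here to be bound.

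**Figure D2:**
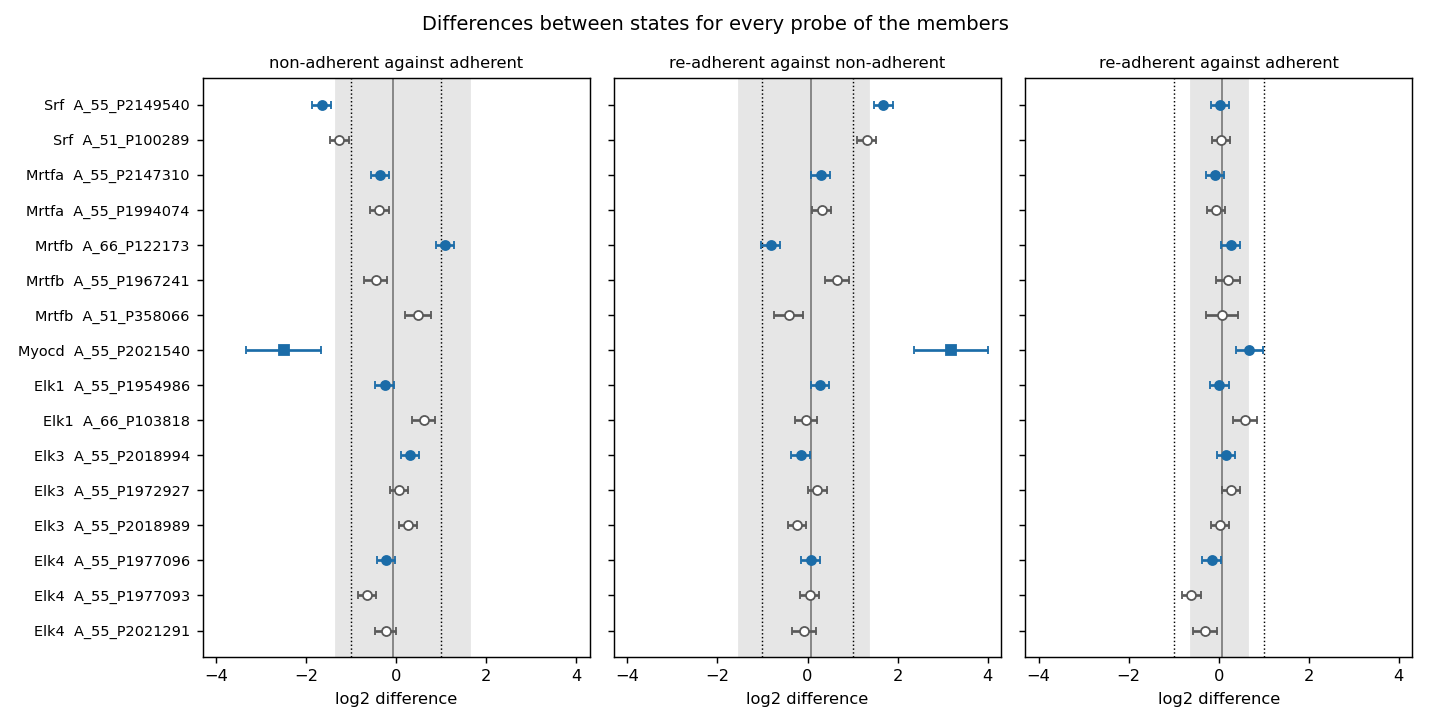
Log2 difference between states for each of the 16 probes, with the technical error of the software. Filled blue points are the probes that stand for the gene, open points the further probes, and squares mark a probe not well above background on 1 of the arrays compared. The grey band spans the 10th to the 90th percentile of all 15393 genes, the grey line is their median, and the dotted lines are 2-fold. Srf (its brighter probe, at -1.66 and 1.68) and Myocd lie outside the band in the left and middle panels, and on the right every gene's own probe is close to 0 except Myocd at 0.68.

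Mrtfa encodes MRTF-A, the actin-regulated cofactor most often tied to fibroblast activation. Its brighter probe (A_55_P2147310, NM_001082536) gave 11234, 9315 and 8849 in adherent, non-adherent and re-adherent cells. The difference was -0.37 ± 0.20 in suspension and 0.29 ± 0.20 on return, and the attached states differed by -0.08 ± 0.20. A dimmer probe of the same transcript, with 1595, 1318 and 1273, gave -0.37, 0.31 and -0.06, nearly the same values. The dip in suspension was thus seen by both probes but was well short of 2-fold, and 34.8% of all genes lay lower. The direction held under every scaling for the step into suspension, whereas the return turned to -0.07 when the arrays were not scaled.

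Mrtfb, which encodes MRTF-B, ran the other way on its brightest probe. That probe (A_66_P122173, NM_153588) gave 3209, 7261 and 3200, so that the suspended cells stood above attached cells, which had nearly equal signals. The differences were 1.08 ± 0.20 in suspension, 2.11-fold, then -0.82 ± 0.20 on return and 0.26 ± 0.20 between the attached states. The excess over 2-fold was smaller than the error, and scaling to the spike-in probes lowered the difference in suspension to 0.69. The remaining probes were dim and ran in different directions. A_55_P1967241, assigned to another transcript of the gene (NM_181860), gave 53.8, 41.8 and 51.5, hence -0.46 ± 0.26 in suspension and 0.66 ± 0.27 on return. A_51_P358066, on the same transcript as the brightest probe, gave 29.4, 44.1 and 25.7, hence 0.49 ± 0.28 and -0.42 ± 0.32. Both probes of NM_153588 were therefore higher in suspension and the probe of NM_181860 lower, and with 3 probes on 1 array per state a difference between transcripts could not be tested.

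Myocd, the gene of myocardin, was close to the detection limit. Its only probe (A_55_P2021540, NM_145136) gave 32.3 in adherent and 43.1 in re-adherent cells, both well above background, and 6.12 in non-adherent cells, where it was not. On that array 14.0 was the lowest signal to count as above background. Against that limit the gene was at least 2.47-fold higher in adherent than in non-adherent cells and at least 3.96-fold higher in re-adherent than in non-adherent cells. The measured differences were -2.50 ± 0.83 and 3.18 ± 0.82, and they depend on a signal that has only a bound. With another background correction (normexp) they shrank to -0.54 and 0.97 and no longer passed 2-fold. That correction adds an offset of 50 to each spot, more than any of these Myocd signals. The offset by itself draws such dim signals together, so the shrinkage is no separate check on Myocd. Re-adherent and adherent cells differed by 0.68 ± 0.30, with 9.18% of genes above that value.

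Myocardin is a gene of smooth muscle and heart muscle, so the markers of those cells are given beside it. Of 8 markers of smooth muscle cells and pericytes, 6, 7 and 5 were well above background for adherent, non-adherent and re-adherent cells, and their summed level, in units of the 75th percentile of the array, was 7.03, 5.54 and 3.70, mostly from Notch3 and Mustn1. Myh11, the myosin heavy chain that defines mature smooth muscle, had signals of 213 in adherent and 33.6 in re-adherent cells and was not well above background at 6.24 in suspension, a level at least 16.3-fold higher in adherent cells. Myh11 is also counted among the MRTF targets below, so it is no separate marker of cell type. The pericyte channel genes Kcnj8 and Abcc9 were well above background in suspension alone, at 73.5 and 131, and Cspg4 gave 706, 182 and 218. Of 9 cardiomyocyte markers 6 were measured, with a summed level of 1.04, 1.72 and 3.21. Most of that sum was Tnnt2, the cardiac troponin T, with 593, 955 and 1646, a difference of 1.74 ± 0.20 between the attached states. Mb, Myl7 and Tnni3 were not well above background in either attached state, and Mb reached 26.5, Myl7 21.0 and Tnni3 70.7 in suspension. Myl2 gave 21.7, 50.6 and 44.1. The part of these cell types in the Myocd values was not tested.

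The ETS partners showed smaller differences. Elk1, the best-known target of ERK among them, was covered by a pair of probes that disagreed, both assigned to NM_007922. A_55_P1954986 gave 414470, 370220 and 347731, the 25th, 28th and 61st highest signals among the 59305 spots of the 3 arrays in the same order. It differed by -0.26 ± 0.20 in suspension, 0.27 ± 0.20 on return and 0.01 ± 0.20 between the attached states. A_66_P103818 gave 46.0, 74.9 and 57.0, hence 0.60 ± 0.25, -0.03 ± 0.25 and 0.57 ± 0.27. One probe had suspension lowest and the other had it highest, so no direction can be given for Elk1. The sequence of the bright probe was not at hand, so what it measures was not checked. Its signal is no measure of how abundant Elk1 RNA was. Quantile normalization left the bright probe at -0.03 in suspension and turned its return to -0.27.

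Elk3, which can repress as well as activate its targets, gave 7095, 9401 and 6573 on its brightest probe (A_55_P2018994, NM_013508). Its differences were 0.31 ± 0.20 in suspension, -0.15 ± 0.20 on return and 0.16 ± 0.20 between the attached states. The further probes of the same transcript gave 4492, 5001 and 4523, and 305, 390 and 258. All 3 probes were higher in suspension, by 0.06 to 0.31, and scaling to the spike-in probes turned the largest of these to -0.08. On return the probes ran from -0.23 to 0.22, and in each of these steps 2 of the 3 probes differed by more than their own error.

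Elk4, also an activator of immediate-early genes, had 3 probes, and all 3 (NM_007923) had their highest level in adherent cells. A_55_P1977096 gave 319, 291 and 238, A_55_P1977093 gave 222, 151 and 121, and A_55_P2021291 gave 63.8, 58.0 and 42.8. The differences in suspension were -0.23 ± 0.21, -0.65 ± 0.21 and -0.24 ± 0.24. On return the probes moved by 0.07, 0.04 and -0.07, each less than its error. Between re-adherent and adherent cells the 3 probes differed by -0.16 ± 0.21, -0.61 ± 0.21 and -0.31 ± 0.26. The first of these was within its error. Its sign was the same under all 14 alternatives, which reuse the same arrays. The size of the step into suspension differed between the probes by more than the error of any of them. RefSeq lists Mfsd4a as overlapping Elk4, Cdk17 as overlapping Elk3 and Sgsm3 as overlapping Mrtfa. Where the probes lie within the genes was not checked.

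The input that releases the MRTF proteins was followed through 18 measured genes of 19 listed, from small GTPases and their activators to formins and actin regulators. Of these, 4 (22.2%) were over 2-fold lower in suspension and 0 higher, with a median of -0.27, beside 14.7% and 17.2% of all genes. Mical2, an enzyme that oxidises nuclear actin and so favours MRTF-A in the nucleus, gave 1709, 216 and 1414, a difference of -3.08 ± 0.21 followed by 3.08 ± 0.21, although its further probe moved only by -1.21 in suspension. Diaph3, a formin that builds actin filaments, gave 3820, 990 and 2665, or -2.05 and 1.79. Rock2, a kinase that small GTPases activate, gave 1787, 699 and 1232, or -1.45 and 1.18, while its relative Rock1 gave 624, 514 and 463, or -0.38 and 0.21. The GTPase gene Rhoc, with 137908, 73684 and 180077, lay just past 2-fold in suspension and was 1.65 higher on return, and Rhoa gave -0.35 and 0.69. On return the same number, 4, were over 2-fold higher, beside 15.6% of all genes. No gene of this input differed over 2-fold between the attached states, where the range was -0.27 to 0.65.

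**Figure D3:**
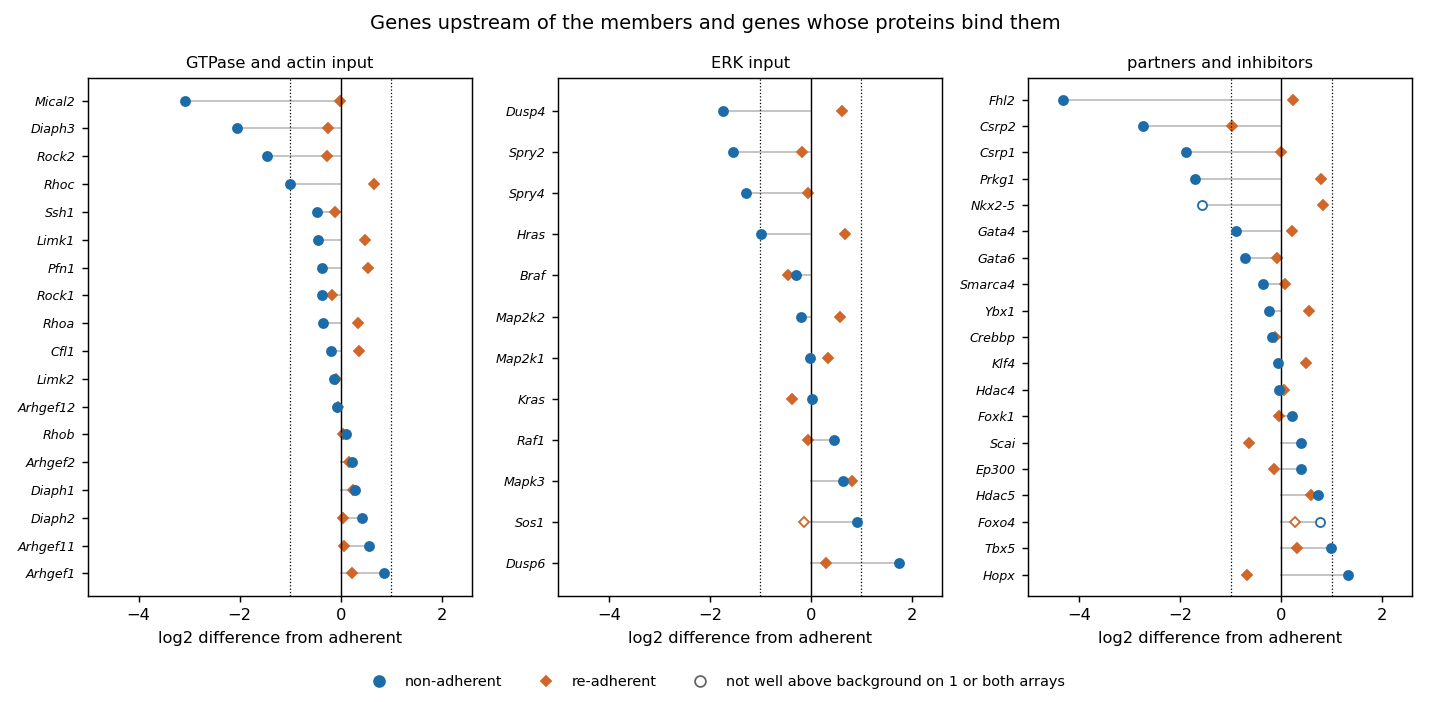
Log2 difference from adherent cells for genes of the GTPase and actin input, the ERK input, and the partners and inhibitors of the 7 proteins, with non-adherent cells as circles and re-adherent cells as diamonds. Open points mark a value that rests on a signal not well above background, and dotted lines are 2-fold. Most circles lie within 2-fold, the circles far to the left are led by Mical2 at -3.08 and Fhl2 at -4.32, and no diamond passes 2-fold.

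The ERK input to the Elk factors was followed through 12 genes, all measured. In suspension 3 (25.0%) were over 2-fold lower and 1 higher, with a median of -0.11, beside 14.7% and 17.2% of all genes. With so few genes these shares say little of the list. These 4 were all feedback inhibitors of the pathway, and they moved in opposite directions. Dusp6, a phosphatase that acts on ERK, gave 7311, 26217 and 7502, a difference of 1.74 ± 0.20 and then -1.44 ± 0.20. Dusp4, a nuclear phosphatase of the same family, gave 2615, 837 and 3332, or -1.74 and 2.36. The Sprouty genes Spry2 and Spry4, whose proteins act upstream of ERK, gave -1.54 and -1.28 in suspension and 1.36 and 1.22 on return. The kinase gene Mapk3 differed less, by 0.64 ± 0.20.

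Partners and inhibitors that bind these factors included 19 measured genes of 20, of which 5 (26.3%) were over 2-fold lower in suspension and 1 higher, beside 14.7% and 17.2% of all genes. The LIM-domain genes led. Fhl2, which binds SRF and is itself known as a target of MRTF-A, gave 44576, 2388 and 43456, or -4.32 ± 0.20 and then 4.55 ± 0.20. Csrp2 and Csrp1, whose proteins bridge SRF and GATA factors, gave -2.74 and -1.89 in suspension and 1.77 and 1.88 on return. Between the attached states Csrp2 differed by -0.97 ± 0.20. Prkg1, a kinase that answers to cyclic GMP, gave 849, 279 and 1213, or -1.70 and 2.48. The last of the 5, Nkx2-5, a homeobox factor of heart muscle cells, was dim, with 43.8 and 65.1 in the attached states and 15.8, not well above background, in suspension. Hopx, a small homeodomain protein that holds SRF from DNA, ran opposite to them, with 101, 271 and 52.6, a difference of 1.33 ± 0.22 in suspension and its lowest signal on return. Among the related MADS-box genes, Mef2c gave 52.0, 205 and 62.3 (1.88 in suspension) and Mef2a 2544, 6772 and 2146 (1.31), whereas Mef2d differed by -0.55. Mef2a and Mef2c thus had the opposite sign to Srf.

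Genes known to follow MRTF and SRF differed far more than the factors did. Of 35 listed genes 34 were measured. In suspension 28 (82.4%) were over 2-fold lower and 0 higher, beside 14.7% and 17.2% of all genes. Their median was -2.82, beside -0.07 over all genes, and 33 of the 34 lay below 0. Of them 24 differed more than Srf itself. Ankrd1, a cardiac ankyrin-repeat protein that also follows YAP, gave 65115, 34.4 and 54636, a difference of -10.98 ± 0.25 that was fully reversed on return, to 0.01 ± 0.20 against adherent cells. Actg2, the smooth-muscle gamma actin, gave 17282, 30.6 and 5916, or -9.24 and 7.96. Cnn1, the calponin of contractile smooth muscle, gave 38092, 91.7 and 18109, or -8.80 and 7.99. Acta1, the skeletal alpha actin, gave 23014, 154 and 17023, or -7.32 ± 0.21 and 7.15 ± 0.21. The signals of these 4 thus ran from 30.6 to 154 in suspension and were 5916 or more in either attached state. The 1 gene above 0 was Actc1, the cardiac alpha actin, with dim signals of 35.4, 63.6 and 4.59, the last not well above background. On return 29 of the 34 were over 2-fold higher and 1, Actc1, lower, beside 15.6% and 16.3% of all genes. The median was 2.70 as measured and 2.53 with the 3 genes that have only a bound set to it. Re-adherent cells had a median of -0.16 against adherent cells, with 5 genes over 2-fold lower and 1 higher, counting dim genes at their bounds. Over all genes, as measured, 4.9% were lower and 4.84% higher. The 5 were Actg2, Itga1, Itga8, Myh11 and Mylk, from -2.40 to -1.06, and the other was Tuft1 at 1.24, all named after their values were seen. The list was written with earlier results of these data known, so its count is a description and not independent evidence of its direction.

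Most genes known to follow the Elk factors and SRF were higher in suspension. Of 22 listed immediate-early genes 20 were measured, all well above background on all 3 arrays. In suspension 11 (55%) were over 2-fold higher and 2 (10%) lower, beside 17.2% and 14.7% of all genes. Their median was 1.07, beside -0.07 over all genes. Of the 20, 14 lay above 0 and 6 below. Fosb gave 119, 5479 and 108, a difference of 5.42 ± 0.21 and then -5.30 ± 0.21, and Fos gave 1205, 18678 and 415, or 3.86 and -5.13. Both encode subunits of the factor AP-1. Zfp36, whose protein destabilises messenger RNAs of cytokines, gave 141, 1014 and 99.0, or 2.74 and -2.99. Against them Fosl1, a further AP-1 subunit, gave 1927, 97.8 and 1842, or -4.40 ± 0.21 and then 4.60 ± 0.21, a course with the sign of the MRTF list, and the other lower gene was Dusp5 at -1.05. On return 10 of the 20 were over 2-fold lower and 2, Fosl1 and Cdkn1a, higher, beside 16.3% and 15.6% of all genes. Re-adherent cells ended with 4 over 2-fold below adherent cells, Egr1, Egr2, Fos and Nr4a1 from -1.57 to -1.05, and 1 above, Cdkn1a at 1.16. Over all genes 4.9% were lower and 4.84% higher in that comparison. With scaling to the spike-in probes the count over 2-fold higher in suspension was 7. This list, too, was written with earlier results known.

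**Figure D4:**
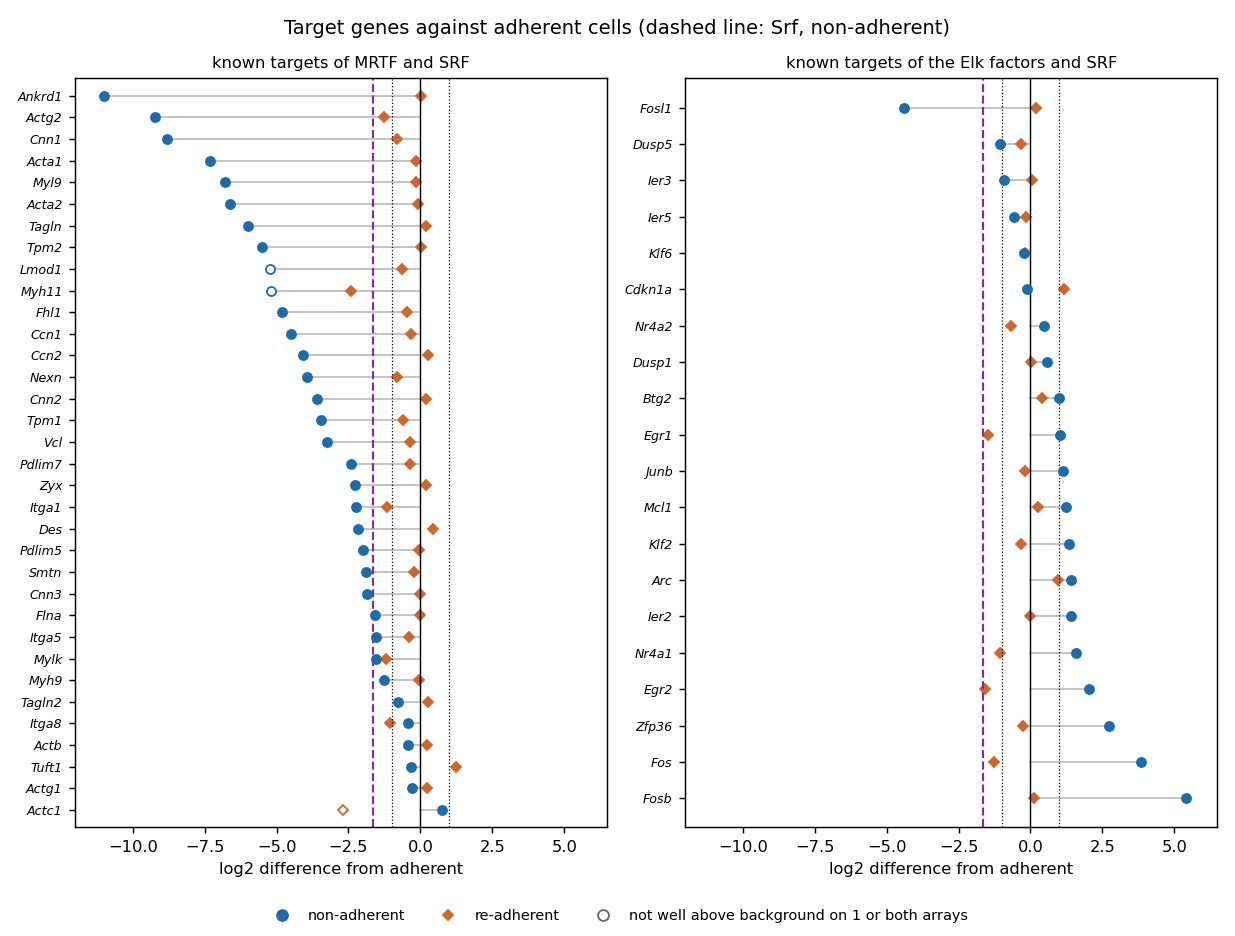
Log2 difference from adherent cells for the measured targets of MRTF and SRF (left, 34 genes) and of the Elk factors and SRF (right, 20 genes), with non-adherent cells as circles, re-adherent cells as diamonds, open symbols for signals not well above background, dotted lines at 2-fold and a dashed line at the Srf difference in suspension of -1.66. On the left the circles run from -10.98 to 0.75 and 27 of the 34 diamonds lie within 2-fold of adherent cells. On the right the circles run from -4.40 to 5.42.

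Markers of other cells moved with the states and stand beside all of these differences. The fibroblast markers were well above background in all states, 10 of 10, with a summed level of 1125, 847 and 853 in units of the 75th percentile of the array. In suspension 4 of the 10 were over 2-fold lower, 1 was higher and 5 were within 2-fold. Over all genes 14.7% were lower and 17.2% higher. The largest differences were -3.50 for Thy1, -1.75 for Tcf21, 1.69 for Dcn and -1.09 for Ddr2. Macrophage markers were higher in suspension for 10 of the 11 measured, over 2-fold in each case, beside 17.2% of all genes. Their summed level was 185, 1127 and 375. Mrc1, C1qb, C1qa and C1qc differed by 3.58, 3.44, 3.32 and 3.30. Ptprc, the gene of CD45, by which cells had been removed, gave 355, 2441 and 532. Of 8 endothelial markers 4 were over 2-fold higher and 1 lower in suspension, beside 17.2% and 14.7% of all genes. On return 6 were over 2-fold lower, beside 16.3% of all genes. Their summed level of 29.7, 23.6 and 36.6 did not follow these counts, since it came mostly from the bright probes of Eng and Kdr. Kdr gave 9446, 7939 and 10320.5, and its probes differed in sign, at -0.35 and 1.96 in suspension. Cldn5, Tie1 and Cdh5 differed by 3.77, 3.18 and 2.94 in suspension with -1.39 for Eng, while Cldn5, Tie1 and Emcn were not well above background in re-adherent cells. The immediate-early genes and the Mef2c gene are also expressed by leukocytes and endothelial cells. The part of these cells in the differences of the 7 genes and their targets was not tested.

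Promoters of the target lists were searched for the same letters as that of Srf. The CArG box was taken as CC, 6 bases of A or T, and GG, which reads the same on both strands, and the ETS hexamer as CCGGAA on either strand. Matches to the box and to the hexamer cannot overlap. The windows run from 250 bases before to 50 after each RefSeq start. Of 32851 such windows 535 (1.63%) held a CArG box and 4894 (14.9%) the hexamer. Among the 7 genes, 6 had 11 windows in all, Srf alone had a box, and the hexamer was also found before Elk4 and before 2 starts of Mrtfb. Myocd had no window. In the MRTF list 7 of 29 windows (24.1%) held a box, those of Acta1, Actc1, Actg1, Cnn2, Fhl1, Myl9 and Vcl, and 1 of the 7, that of Fhl1, also held the hexamer. In the Elk list 6 of 22 windows (27.3%) held a box, from the 3 genes Dusp5, Egr2 and Zfp36, and 2 of the 6 also held the hexamer. The GTPase and actin input and the ERK input had a box in 0 of 24 and 0 of 7 windows. Among partners and inhibitors, which are not a target list, 3 of 19 windows (15.8%) held one, before both starts of Fhl2 and before Hopx. Several starts of Egr2 lie close together and share letters, so windows are not independent. These lists hold textbook targets, some of which became known through such boxes.

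A promoter of each list is shown to set beside that of Srf, chosen by its values: the largest difference in the MRTF list among genes with a box, and the largest in the Elk list among genes with both motifs. Capitals mark the matches in the 250 bases before the start, from RefSeq on GRCm38.p6, read in the direction of the gene. The first is at chr8:123894776-123895025 and the other at chr7:28379229-28379478, both on the minus strand.
Acta1: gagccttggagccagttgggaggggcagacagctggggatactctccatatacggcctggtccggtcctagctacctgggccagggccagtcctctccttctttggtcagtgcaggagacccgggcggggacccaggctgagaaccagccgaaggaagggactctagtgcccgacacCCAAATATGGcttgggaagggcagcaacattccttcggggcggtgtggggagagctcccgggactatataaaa
Zfp36: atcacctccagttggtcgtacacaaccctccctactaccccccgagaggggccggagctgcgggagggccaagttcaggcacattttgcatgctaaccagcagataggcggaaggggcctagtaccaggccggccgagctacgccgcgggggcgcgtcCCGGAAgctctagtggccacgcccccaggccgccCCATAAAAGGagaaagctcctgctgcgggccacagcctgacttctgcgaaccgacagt
In Acta1, with a difference of -7.32 in suspension, the box CCAAATATGG lies at -73 to -64 with no hexamer in the window. In Zfp36, with 2.74, the hexamer lies at -92 to -87 and the box CCATAAAAGG at -58 to -49. That box has the same letters as the box nearest the start of Srf, with -1.66. The same letters thus stood before a gene that was higher and a gene that was lower in suspension. This is a single pair, with Zfp36 chosen by its values, and what the box does was not tested. Windows of this length leave out more distant sites.

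**Figure D5:**
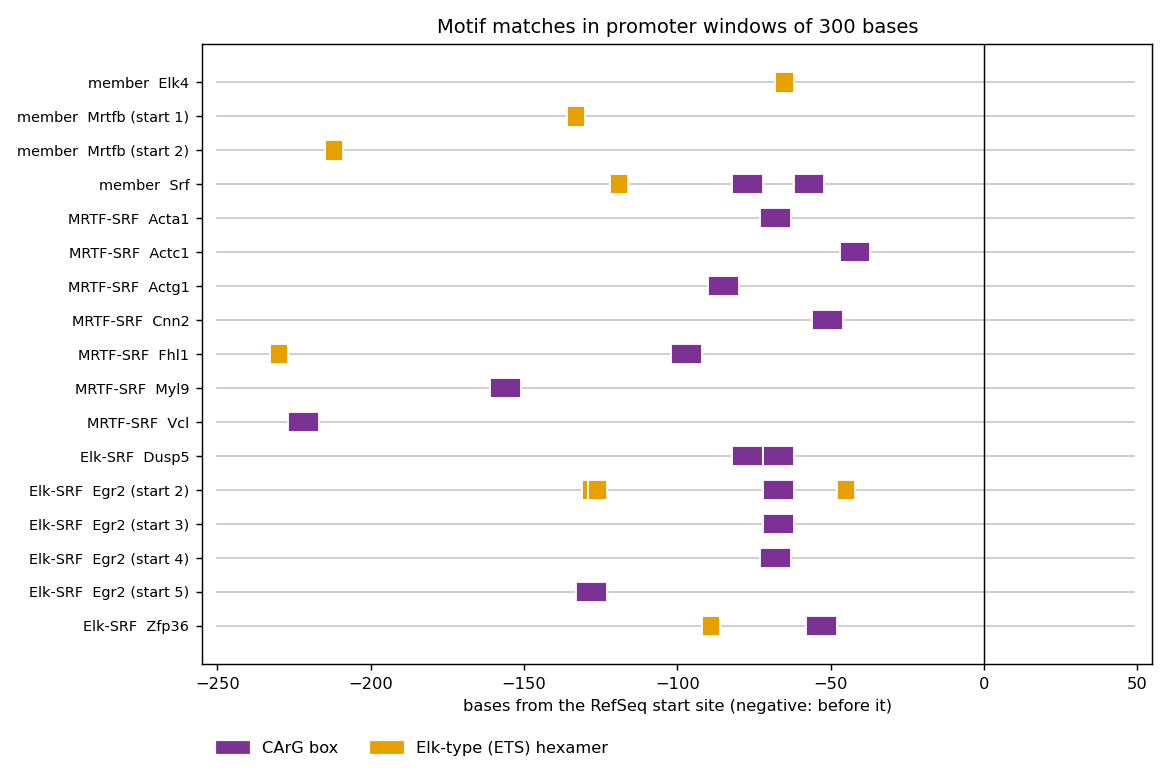
Positions of CArG boxes (purple) and of the ETS hexamer (orange) relative to the RefSeq start site at 0, for the windows of the 7 genes with any match and for the windows of both target lists that hold a CArG box. Srf has 2 boxes between -82 and -53 with the hexamer before them, and most boxes lie nearer to the start than to the far end of the window.

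The genes whose course over the 3 arrays was most like that of each factor were found among 13469 genes well above background on all arrays, by the Euclidean distance between log2 levels centred on their mean. For Srf these were Qsox1, Mxd3 and Disp1, at distances of 0.01, 0.02 and 0.02, and 179 genes lay within 0.2. For Mrtfb they were Sun5, Znfx1 and Scamp1, with 384 genes within 0.2. Mrtfa was closest to Kat2a, Pcdh1 and Heatr1, Elk1 by its bright probe to Spata13, Fdxacb1 and Spred2, Elk3 to Twf1, Pcyox1 and Syap1, and Elk4 to H1f4, Phtf1 and Cep57l1. For these 4 genes 1235 to 1671 genes lay within 0.2, since a flat course is common. With 3 points per gene a small distance is easily met and carries no more than the course itself.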

How the data were processed

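RNA was measured in 3 samples, adherent, non-adherent and re-adherent cardiac myofibroblasts, on 1-colour Agilent mouse arrays designed on mm9. The authors deposited the intensity of each spot as the processed signal of Feature Extraction 10.10.1.1, which had subtracted the background. The deposited series matrix holds intensity values equal to that signal times 1.52, 1.52 and 1.62, for which no reason is given in the sources used here. Per the file headers the arrays shared a slide and a scan.

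From these files the log2 signal minus the 75th percentile over non-control spots was computed. Spots called outliers by the software (154, 180 and 175) were left out. Probes were named through RefSeq transcripts of GRCm38.p6, which matched 21462 of 37874 names. Probes well above background in 1 or more of the states were kept, and the brightest stood for its gene. Differences past 2-fold were counted. A signal not well above background gives a fold of at least the ratio to its bound, which is the larger of itself and the faintest detected signal of its array. Errors are those of the software, summed in quadrature over the spots compared. With 1 array per group there was no test, and the small number of arrays limits precision. The number of value columns left unused is 0.

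The 7 genes, the lists (GTPase and actin input, ERK input, partners and inhibitors, MADS-box relatives, targets of MRTF and of Elk, and markers of fibroblasts, macrophages, endothelium, cardiomyocytes and smooth muscle or pericytes) and the rules were chosen with earlier results of these data known. Named were the 7 genes with every probe, up to 4 measured genes of each list with the largest difference in suspension, Rhoa, Rock1, Rock2 and Mapk3, and the 3 nearest courses of each of the 7 genes detected on all arrays. One gene of the ERK list is not reported here. Other names belong to small counts, motif matches or dim markers and were chosen after their values were seen. Alternatives covered scaling, background correction, filters, probe choice and the 2-fold limit. Normexp (limma 3.58.1, R 4.3.3) used the median spot signal and an offset of 50, in place of the mean signal that had been planned. Scripts in Python 3.11.15 (numpy 2.4.6, pandas 2.3.3, matplotlib 3.10.9) were tested on simulated data.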

Additional observations from a re-analysis of the deposited data

How the results depend on the processing

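Srf lay below 0 in suspension and above 0 on return under all 14 alternatives, from -2.05 to -1.26 and from 1.31 to 1.72, and the count of MRTF targets over 2-fold lower was 26 to 29 of those measured under the 12 alternatives that kept the limit. Setting the arrays to the same spike-in level shifted the all-gene median by -0.39 in suspension and -0.48 between the attached states. Srf was then at -2.05 in suspension and -0.46 between the attached states, 0 of the 7 genes were over 2-fold higher in suspension, and 7 of the Elk targets were. Without scaling, which moved the median by -0.36 on return, Srf was at 1.32 on return and -0.24 between the attached states, and 1 gene, Mrtfb at -1.18, was over 2-fold lower on return. The deposited matrix values, which moved it by -0.27, gave 1.41 for Srf on return and the same 1 gene at -1.09. With no filter on dim probes the median moved by -0.14 and 0.19. With normexp, or with only probes above background on all arrays, the counts that include Myocd dropped to 1 lower in suspension and 1 higher on return. The offset of normexp by itself draws signals as dim as those of Myocd together. With the mean of all probes of a gene, or a limit of 3-fold, 0 genes were higher in suspension, and at 3-fold 4 Elk targets were. At 1.5-fold 1 gene was lower on return and 1 was higher between the attached states. With the second brightest probe, an alternative added after the data had been seen like the subtraction of neighbouring spots, Srf was at -1.26 and 1.31, Mrtfb was reversed to -0.46 in suspension and 0 genes were over 2-fold higher there. Neighbouring spots were subtracted only for the probe that stands for each gene. Apart from what the settings themselves change (fewer genes, another limit, another probe), the cause was not tested. Of the values for the other 6 genes, 47 moved by more than their error, 201 moved less, and the 1 named above was reversed. Only values past 2-fold could be counted as reversed, so smaller values that changed sign are among the other counts. With the second brightest probe, Mrtfb on return went from -0.82 to 0.66 and Elk1 in suspension from -0.26 to 0.60.

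No paired analysis was possible because no group holds more than 1 array, and no replicate could be left out. Dim signals (Myocd, the further probes of Mrtfb and Elk1) limit what these arrays can show. The unchecked bright probe of Elk1 is a further limit. Differences within about 0.20 did not exceed the error that the software assigns, which was nearly the same for all bright probes. It is not a measured limit of detection. Probes spotted repeatedly varied less, with an SD of 0.06 to 0.08 between their spots. Neither value includes the spread between cultures.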
